A study of Mus musculus with 71 samples.

Results

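Fibroblasts of the meninges and of the sheath around larger brain vessels are described here through 35 genes that mark them, out of 37681 genes in the tables. The genes were picked by symbol as a marker list, and no measured value entered the rule, but earlier results of these data were known when the list was made. They comprise 4 fibrillar collagens (Col1a1, Col1a2, Col3a1, Col5a1), 4 chains of collagens VI and VIII (Col6a1, Col6a2, Col6a3, Col8a1), 5 small leucine-rich proteoglycans (Dcn, Lum, Ogn, Bgn, Fmod), 4 other matrix proteins (Fn1, Eln, Mgp, Islr), 3 growth factors or their binding proteins (Igf2, Igfbp2, Bmp6), 5 transporters or channels (Slc6a13, Slc13a4, Slc22a6, Slc47a1, Gjb2), 5 transcription factors or cofactors (Foxc1, Foxd1, Tbx18, Nupr1, Eya2), 2 retinoid genes (Aldh1a2, Crabp2) and 3 others (Ranbp3l, Serping1, Asgr1). RNA-seq was carried out on 71 libraries of punched nucleus accumbens (NAc), ventral tegmental area (VTA) and prefrontal cortex (PFC) of adult wild type C57BL/6 mice of both sexes. The mice learned to work for food pellets, then self-administered cocaine or saline through a vein catheter, and tissue was taken after 1 or 28 days of abstinence. There were 12 groups of 6 libraries, apart from the saline VTA group at 28 days with 5. Punches of 2 mm were cut from sections 1 mm thick. Whether a library came from 1 mouse or from pooled mice is not given in the sources used here. The p-values therefore measure the spread between these libraries.

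Most of the brain's collagen lies outside the neural tissue proper. Meningeal fibroblasts form the layers of the pia, arachnoid and dura, and perivascular fibroblasts line the space around arterioles and venules as these enter the tissue. They lay down fibrillar collagens, decorate the fibrils with small proteoglycans, secrete insulin-like growth factor 2 and retinoic acid, and carry transporters for organic anions and for GABA. Neurons and glia make little of most of these proteins, so a punch that includes brain surface, or a large vessel, holds more of this RNA than one of deep tissue. Col6a1 and Fn1 are made by other brain cells as well.

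The start regions of 3 members are shown, 250 bases before the RefSeq gene start on the plus strand of GRCm38.p6: those of a pair of collagen genes whose levels moved together across the VTA libraries, and that of Foxc1, a forkhead factor needed to form the meninges. Capitals mark a TATAAA in Col3a1, a CCAAT in Col1a2 and, in Foxc1, a CCAAT read on the other strand.
Col1a2, chr6:4505368-4505617: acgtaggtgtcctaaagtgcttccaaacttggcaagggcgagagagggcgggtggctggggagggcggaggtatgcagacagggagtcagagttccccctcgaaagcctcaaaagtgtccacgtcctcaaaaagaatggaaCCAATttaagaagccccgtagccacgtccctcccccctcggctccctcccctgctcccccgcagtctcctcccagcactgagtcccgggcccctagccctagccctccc
Col3a1, chr1:45311288-45311537: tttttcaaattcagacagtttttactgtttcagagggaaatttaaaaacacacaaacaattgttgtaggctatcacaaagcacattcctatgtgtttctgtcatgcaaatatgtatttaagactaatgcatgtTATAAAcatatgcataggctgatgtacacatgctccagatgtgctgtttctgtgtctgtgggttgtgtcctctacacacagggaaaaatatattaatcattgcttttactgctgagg
Foxc1, chr13:31806396-31806645: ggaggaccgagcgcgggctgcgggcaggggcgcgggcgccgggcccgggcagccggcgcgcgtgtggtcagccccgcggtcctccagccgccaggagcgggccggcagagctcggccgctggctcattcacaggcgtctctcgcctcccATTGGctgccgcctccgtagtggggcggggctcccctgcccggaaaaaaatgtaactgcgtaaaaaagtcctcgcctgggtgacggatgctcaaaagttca

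The stretch of Col3a1 held 35.2% G and C, that of Col1a2 62.0% and that of Foxc1 70.8%. RefSeq windows of 300 bases, from 250 before the start to 50 after it, were found for 25 of the 35 members, 33 windows in all; Eya2, Dcn, Crabp2, Serping1, Lum, Eln, Fn1, Mgp, Col1a1 and Slc47a1 had no entry. On both strands, TATAAA occurred in 2 of these 33 windows against 13.6% of all 32851, CCAAT in 12 against 37.4%, and the forkhead motif GTAAACA in 1 against 3.65%. The 3 motifs did not overlap in letters, and in the 33 member windows TATAAA had a share of 6.06%, CCAAT of 36.4% and GTAAACA of 3.03%.

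Library depth ran from 20971967 to 49700932 reads on genes. Levels are given as RPKM, reads scaled to gene length and to the depth of the library, so that genes of different length can be compared. The NAc, VTA and PFC libraries held the markers of their regions, and 1 PFC library also held striatal markers. Saline library 4 of the PFC at 28 days had 45.9 RPKM of Drd2, the striatal dopamine D2 receptor, against 0.848 to 2.93 RPKM in the other 11 PFC libraries of that time. Its mean for the striatal medium spiny neuron list was 5.84 (log2 RPKM) against at most 2.41 in the others. Its mean for the cortical excitatory neuron list was 3.96 against 4.48 to 4.64. The summed level of the cortical markers also varied between NAc libraries, from 12.7 to 297.6 RPKM at 1 day and from 20.9 to 230.9 RPKM at 28 days. In the VTA 1 library at each time stood far above the others in the member genes themselves.

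The 35 genes took between 0.0210% and 0.527% of all reads in the VTA libraries at 1 day, a 25.1-fold range, and between 0.0184% and 0.387% at 28 days, a 21.02-fold range. In the NAc the range was 1.48-fold at 1 day and 1.47-fold at 28 days, and in the PFC 1.92-fold and 2.53-fold. These shares are led by the most abundant members, which differ between regions. In the NAc at 1 day Col6a1 alone had a median of 6459 reads, where the 35 genes together had 8728 to 14633. Its median in the VTA at 1 day was 337 reads. The ranges of NAc and VTA therefore rest on different genes. At 1 day all 35 members were highest in the same VTA library, cocaine 6, and 28 of them were lowest in saline 4. At 28 days all 35 were highest in saline 4 and 20 were lowest in cocaine 1. For the lowest libraries the share of all genes is not given, so those counts do not by themselves set the members apart. Of all 15042 genes averaging 0.5 RPKM or more at 1 day, 27.4% were highest in cocaine 6, and of 15056 at 28 days 15.9% were highest in saline 4. The libraries in which the fibroblast genes were most abundant therefore belonged to opposite treatments at the different times.

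**Figure D1:**
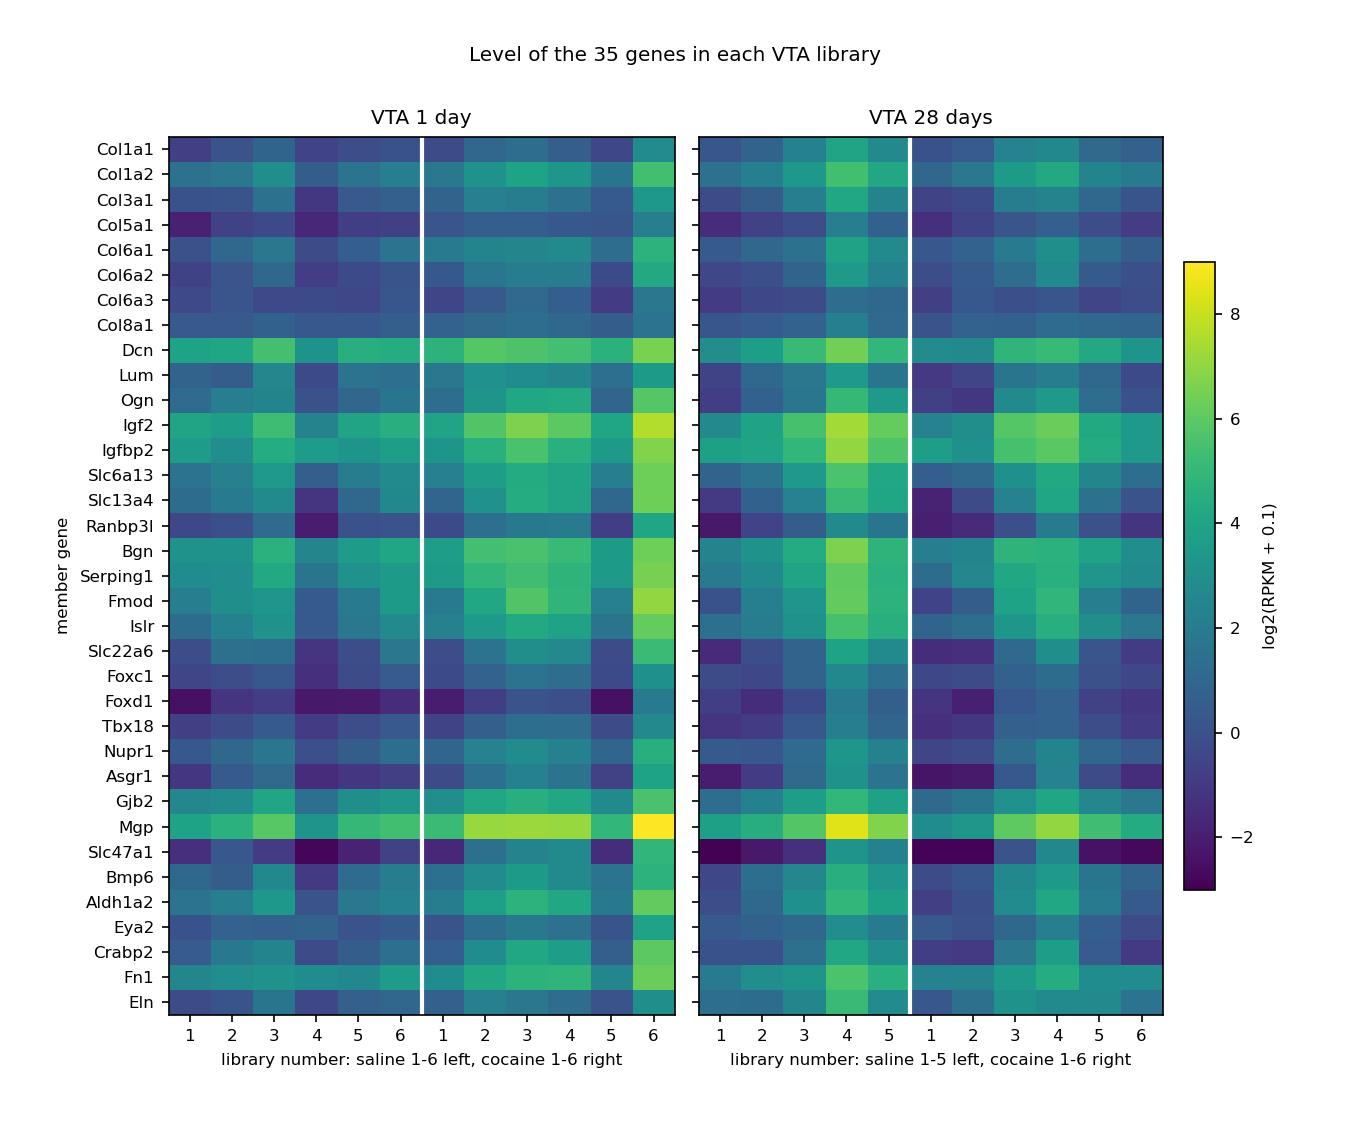
Level of each of the 35 genes, as log2(RPKM + 0.1), in the 12 VTA libraries at 1 day and the 11 at 28 days, saline to the left and cocaine to the right of the white line. The column of cocaine 6 at 1 day and that of saline 4 at 28 days are the brightest in every row.

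The scale of the rise in those libraries differed between members in much the same order at both times. At 1 day the highest library exceeded the median library of the table by 1.88-fold (Col8a1) to 60.4-fold (Slc47a1), with a median over members of 9.91-fold, and at 28 days by 2.73-fold (Col8a1) to 77.4-fold (Slc47a1), with a median of 6.92-fold. Of the 10 members with the widest ratio at each time, 7 were shared: Asgr1, Col6a2, Crabp2, Fmod, Ogn, Slc13a4 and Slc47a1. Over the 35 members the ratios at the 2 times had a Spearman rho of 0.774 and the median levels one of 0.929; this is a description across genes of different VTA libraries, and genes are not independent replicates. By role the transporters and channels had the widest median ratio at 28 days, 12.99-fold, and the retinoid genes at 1 day, 18.03-fold. Collagens VI and VIII had the narrowest at 28 days, 4.55-fold, and the small leucine-rich proteoglycans at 1 day, 5.51-fold.

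The members also varied more than other genes within a group. The median SD of their log2 levels within groups of the VTA was 1.07 at 1 day, against 0.181 over all genes of at least 0.5 RPKM, and 1.38 against 0.196 at 28 days. In the NAc it was 0.461 against 0.180 at 1 day and 0.285 against 0.142 at 28 days, and in the PFC 0.525 against 0.149 and 0.657 against 0.135. In each table every member counted lay above the median SD of all genes. The genes were not matched for level, and counting noise widens the SD of genes with few reads. Crabp2 in the NAc at 28 days, for example, had a median of 38 reads.

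Cocaine was compared with saline at 1 day in the VTA, the region of the midbrain that holds the dopamine neurons. The mean log2 level of the 35 genes was 2.74 ± 1.37 (SD, n = 6) after cocaine and 1.24 ± 0.73 (SD, n = 6) after saline. The cocaine libraries 1 to 6 lay at 1.32, 2.77, 3.35, 3.01, 1.16 and 4.86, and the saline libraries at 0.84, 1.402, 2.23, 0.12, 1.11 and 1.72. Cocaine 1 and 5 lay within the saline range and the other 4 above it. All 35 members had a higher mean after cocaine, with log2 fold changes from 0.60 to 2.61 and a median of 1.49, where 58.9% of all genes tested were above 0 with a median of 0.03. None of the 35 had an adjusted p under 0.05 in limma on log2(RPKM + 0.1), where 0.186% of the 15042 genes tested did. At an unadjusted p under 0.05 there were 26, all higher after cocaine, against 15.4% of all genes in either direction and 11.1% higher. At an adjusted p under 0.25 there were 11, against 8.44%. edgeR on the reads recovered from RPKM called 0 against 0.341% of 16132 genes, with 35 at an unadjusted p under 0.05 against 16.9%. In punched tissue, more cells of a type and more RNA per cell cannot be told apart.

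**Figure D2:**
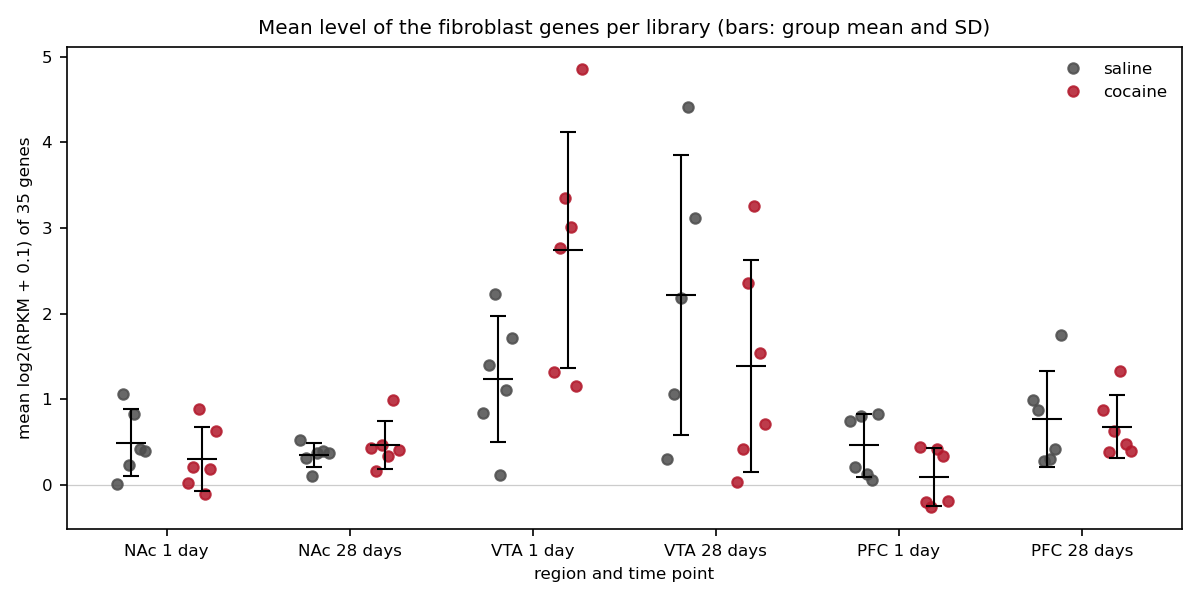
Mean log2(RPKM + 0.1) of the 35 genes in each of the 71 libraries, by region and time point, saline in grey and cocaine in red, with the mean and SD of each group. The VTA groups spread from 0.12 to 4.86 at 1 day and from 0.04 to 4.42 at 28 days, and the NAc groups stay between -0.11 and 1.07.

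The fibrillar collagens, which form the stiff cables of the matrix, had the member with the smallest p. Col5a1, the collagen V chain that starts fibril growth, ranged after saline from 0.164 to 0.696 RPKM with a median of 0.492, and after cocaine from 1.01 to 4.32 RPKM with a median of 1.26. All cocaine libraries lay above all saline libraries, as in 1.30% of all genes tested. Its log2 fold change was 1.68 (SE 0.362, limma adjusted p = 0.0931). Col1a1 (ENSMUSG00000001506, mm9 chromosome 11, 94797538 to 94814356) and Col1a2 (ENSMUSG00000029661, mm9 chromosome 6, 4454814 to 4491543), on the plus strand, encode the chains of collagen I. Col1a2 ranged from 1.37 to 7.28 RPKM after saline (median 3.05) and from 3.11 to 40.8 RPKM after cocaine (median 9.54), with a log2 fold change of 1.49 (SE 0.588, limma adjusted p = 0.269). Col1a1 ranged from 0.499 to 1.73 RPKM after saline (median 0.853) and from 0.658 to 6.87 RPKM after cocaine (median 1.66), with a log2 fold change of 0.94 (SE 0.481, limma adjusted p = 0.372). Values of the treatments overlapped for both chains.

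Collagen VI forms beaded filaments near cell surfaces, and collagen VIII short-chain networks in vessel walls. Col6a1 ranged from 0.758 to 3.45 RPKM after saline (median 1.69) and from 2.34 to 26.6 RPKM after cocaine (median 5.38), with a log2 fold change of 1.80 (SE 0.534, limma adjusted p = 0.173). Col8a1 ranged from 1.13 to 1.54 RPKM after saline (median 1.18) and from 1.33 to 2.83 RPKM after cocaine (median 2.05), with a log2 fold change of 0.61 (SE 0.156, limma adjusted p = 0.128). Their groups overlapped, although each of the 6 cocaine libraries exceeded the mean of the saline group. Col8a1 had the second smallest p with nearly the smallest fold change, since its level varied least among libraries.

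Decorin (Dcn, ENSMUSG00000019929, mm9 chromosome 10, 96942245 to 96980777, plus strand), a proteoglycan that binds collagen fibrils, was among the most abundant members. It ranged from 8.88 to 43.95 RPKM after saline (median 19.1) and from 26.4 to 96.8 RPKM after cocaine (median 46.1). Its log2 fold change was 1.21 (SE 0.385, limma adjusted p = 0.194), each of the 6 cocaine libraries exceeded the mean of the saline group, and the ranges overlapped. All 5 proteoglycans had an unadjusted p under 0.05, with log2 fold changes from 1.21 to 1.97. Of all genes tested 15.4% had such a p in either direction and 11.1% were higher. Matrix Gla protein (Mgp), an inhibitor of calcification and the most abundant member in VTA tissue, was chosen after its values were seen: it ranged from 9.01 to 59.2 RPKM after saline and from 31.1 to 506.7 RPKM after cocaine.

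Insulin-like growth factor 2 (Igf2, ENSMUSG00000048583, mm9 chromosome 7, 149836673 to 149852721, minus strand), secreted by the meninges and choroid plexus, ranged from 5.08 to 38.4 RPKM after saline (median 16.2) and from 16.0 to 196.2 RPKM after cocaine (median 58.3). Its log2 fold change was 1.70 (SE 0.636, limma adjusted p = 0.247). Slc6a13 (ENSMUSG00000030108, mm9 chromosome 6, 121250245 to 121287751, plus strand), a GABA and taurine transporter of the meninges, ranged from 1.45 to 11.2 RPKM after saline (median 4.34) and from 4.27 to 81.1 RPKM after cocaine (median 14.4), a log2 fold change of 1.67 (SE 0.682, limma adjusted p = 0.280). Both had groups that overlapped, with 4 of 6 cocaine libraries higher than the mean of the saline group. Slc47a1, an exporter of organic cations, had the largest log2 fold change, 2.61 (SE 1.01, limma adjusted p = 0.263), and was chosen after its values were seen: it ran from 0.0423 to 1.08 RPKM after saline and from 0.225 to 29.4 RPKM after cocaine.

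Foxc1, whose start region is printed above, ranged from 0.297 to 1.29 RPKM after saline (median 0.770) and from 0.708 to 8.03 RPKM after cocaine (median 1.96). Its log2 fold change was 1.25 (SE 0.524, limma adjusted p = 0.289), and the groups overlapped. Of the 5 transcription factors and cofactors 3 had an unadjusted p under 0.05, against 15.4% of all genes. The median log2 fold change over the 5 was 1.15. Both retinoid genes, Aldh1a2, which makes retinoic acid, and Crabp2, which carries it, had log2 fold changes of 1.92.

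**Figure D3:**
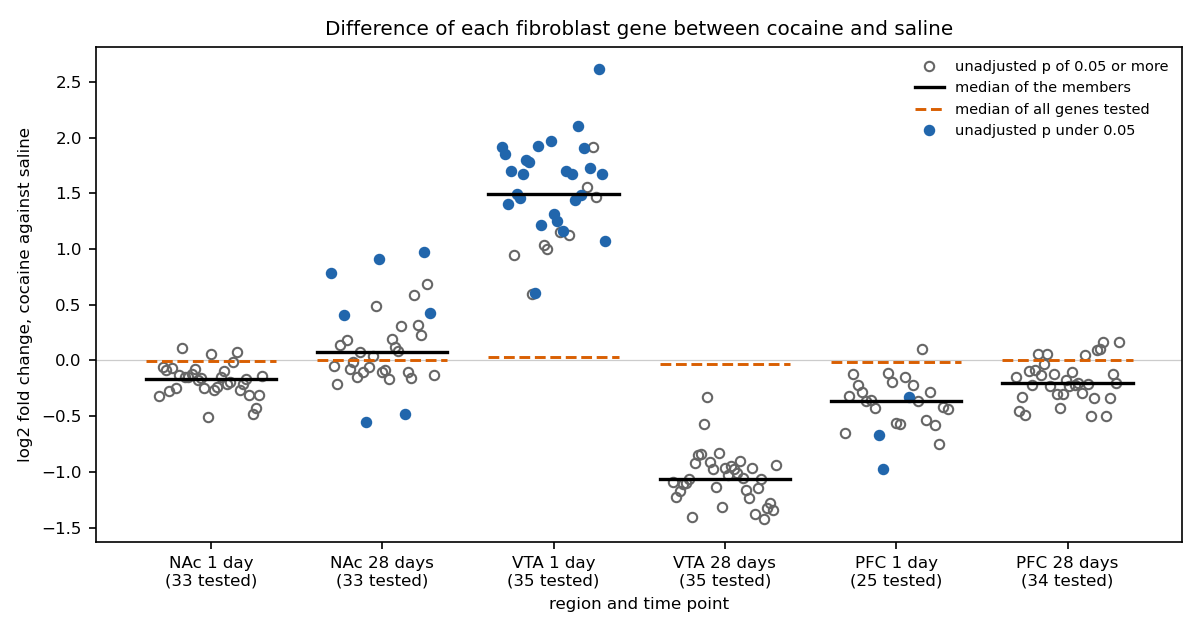
Log2 fold change of each member between cocaine and saline in the 6 comparisons, 1 point per gene tested, filled where the unadjusted p was under 0.05, with the median of the members (black) and of all genes tested (dashed). The members lie from 0.60 to 2.61 in the VTA at 1 day and from -1.42 to -0.32 at 28 days, and from -0.97 to 0.97 in the other comparisons.

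At 28 days the same comparison in the VTA had the opposite sign. The mean log2 level of the 35 genes was 1.39 ± 1.24 (SD, n = 6) after cocaine and 2.22 ± 1.63 (SD, n = 5) after saline. The saline libraries 1 to 5 lay at 0.31, 1.07, 2.19, 4.42 and 3.12, and the cocaine libraries 1 to 6 at 0.04, 0.42, 2.36, 3.25, 1.54 and 0.71. The groups overlapped across nearly their whole ranges. All 35 members had a lower mean after cocaine, with log2 fold changes from -1.42 to -0.32 and a median of -1.06, where 43.1% of all genes were above 0. edgeR called 0 of the 35 and 0% of the 16937 genes tested. At an unadjusted p under 0.05 there were 0 members, against 11.5% of all genes, and DESeq2 called 0 against 0.38%, with 0 at an unadjusted p under 0.05 against 10.1%.

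The 3 members with the smallest p were Foxc1, Col3a1 and Col1a1. Foxc1 lay at 0.749, 0.663, 1.69, 5.91 and 2.49 RPKM in the saline libraries, and ranged from 0.647 to 2.29 RPKM after cocaine (median 0.807), a log2 fold change of -1.03 (SE 0.544, edgeR adjusted p = 0.465). Col3a1, the collagen of reticular fibers, lay at 0.760, 1.36, 4.29, 18.4 and 5.03 RPKM in the saline libraries, and ranged from 0.594 to 5.06 RPKM after cocaine (median 1.499), a log2 fold change of -1.404 (SE 0.779, edgeR adjusted p = 0.479). Saline 4 was the highest for both, saline 5 came next for Foxc1, and saline 1 and 2 lay among the lower cocaine libraries.

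Col1a1 lay at 1.07, 1.67, 4.71, 15.9 and 6.18 RPKM in the saline libraries and ranged from 0.917 to 5.91 RPKM after cocaine (median 1.79), a log2 fold change of -1.10 (SE 0.667, edgeR adjusted p = 0.508). Col1a2 lay at 2.71, 4.402, 10.3, 41.8 and 18.2 RPKM in the saline libraries and ranged from 1.82 to 18.8 RPKM after cocaine (median 4.48), a log2 fold change of -1.06 (SE 0.716, edgeR adjusted p = 0.529). Both collagen I chains thus stood in the same order across the saline libraries. Dcn lay at 7.48, 13.3, 33.8, 87.2 and 30.3 RPKM in the saline libraries and ranged from 6.62 to 34.96 RPKM after cocaine (median 13.96), a log2 fold change of -0.97 (SE 0.608, edgeR adjusted p = 0.513).

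Igf2 lay at 6.14, 14.9, 44.9, 162.4 and 70.5 RPKM in the saline libraries and ranged from 4.84 to 78.04 RPKM after cocaine (median 15.1), a log2 fold change of -1.01 (SE 0.848, edgeR adjusted p = 0.605). Slc6a13 lay at 1.68, 2.82, 10.9, 48.9 and 17.7 RPKM in the saline libraries and ranged from 1.41 to 19.2 RPKM after cocaine (median 4.05), a log2 fold change of -1.34 (SE 0.846, edgeR adjusted p = 0.517). For 29 of the 35 members 1 cocaine library exceeded the mean of the saline group, and for 6 members none did. Single libraries moved the difference both ways. Without cocaine 4, the highest cocaine library, the median log2 fold change of the members was -1.54 and 18 had an unadjusted p under 0.05, against 14% of all genes. Without saline 4 the median was -0.23, and with cocaine 1 left out as well it was -0.01, with 17 of the 35 above 0 and 0 at an unadjusted p under 0.05 against 10.4% of all genes. At 1 day, leaving out cocaine 6 and saline 4 together moved the median from 1.49 to 0.86 and left 7 of 34 members tested at an unadjusted p under 0.05, against 13.9% of all genes, and 0 called against 0.2%. Both of these pairs were chosen after the values were seen.

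The difference between the time points was tested in the VTA after the opposite signs were seen, in 1 edgeR model of the 23 libraries with reads recovered from RPKM at 1 day. Its negative direction was set by the signs already seen. Cocaine 6 at 1 day and saline 4 at 28 days, the highest libraries of their times, were kept. The interaction was not fitted without them. All 35 members had a negative interaction, with a median of -2.97 on the log2 scale, and all 35 had an unadjusted p under 0.05, against 15.6% of 17197 genes. edgeR adjusted p-values ran from 0.162 to 0.236, so 0 were called, as were 0% of all genes. Col5a1 had the smallest p, with an interaction of -2.90 (SE 0.788). For Col1a2 it was -2.96 (SE 0.980), for Slc6a13 -3.52 (SE 1.16) and for Foxc1 -2.75 (SE 0.827).

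Genes of other cell types and of matrix assembly moved with the members from library to library. Of 16 lists, the members included, 10 had their highest mean in cocaine 6 at 1 day, and 10 in saline 4 at 28 days. In cocaine 6 the border macrophage mean was 2.46 (log2 RPKM) against -1.03 to 1.32 in the other libraries, and the choroid plexus epithelium mean 1.47 against -1.09 to 0.36. The endothelial mean was 4.57 against 3.17 to 3.99 and the mural (pericyte and smooth muscle) mean 3.92 against 2.28 to 3.57. The astrocyte mean ranked 11 of 12 there and the microglia mean 6 of 12. In saline 4 at 28 days the border macrophage mean was 1.58 against -1.12 to 0.69 and the endothelial mean 4.80 against 3.20 to 4.30. The midbrain dopamine neuron mean was lowest there, 3.84 against 3.88 to 5.68. In cocaine 6 at 1 day the midbrain dopamine neuron mean ranked 8 of 12, at 4.10 against 3.13 to 4.85. The ependyma mean ranked 1 of 12 in cocaine 6 and 4 of 11 in saline 4.

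**Figure D4:**
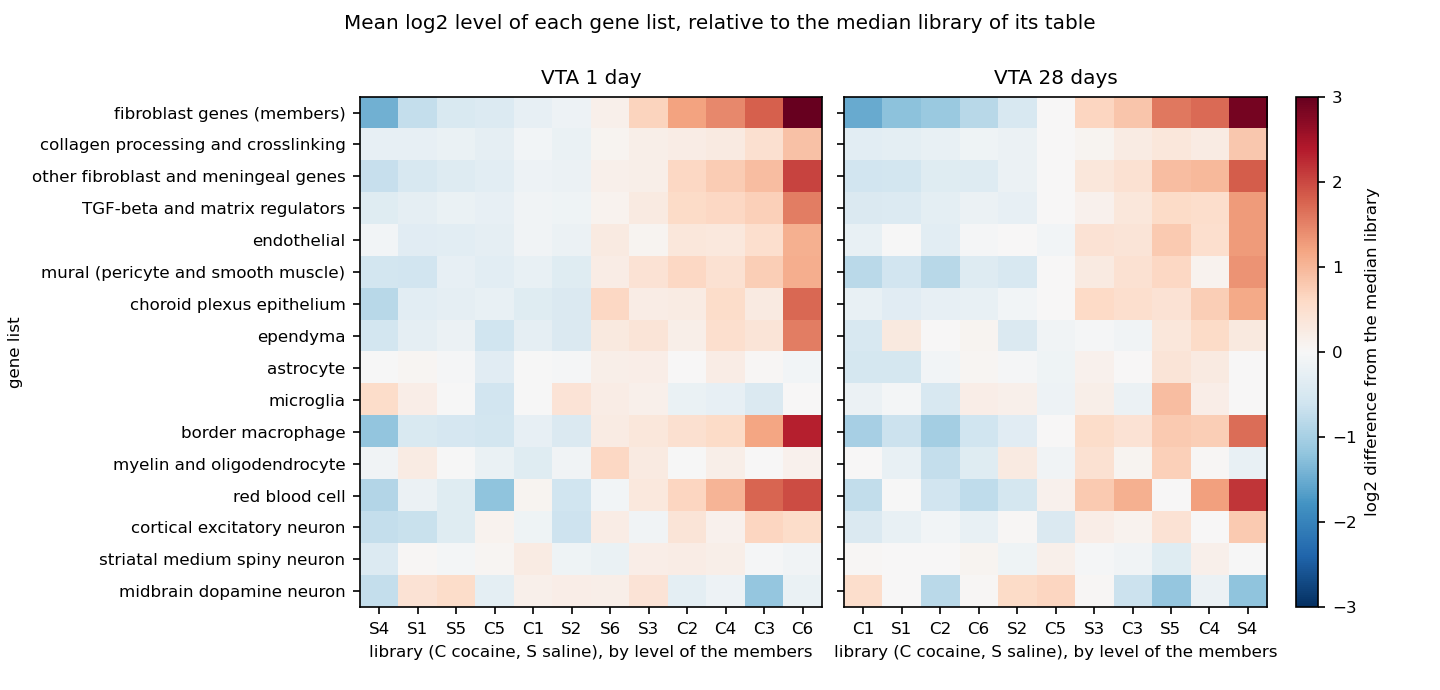
Mean log2 level of each gene list in each VTA library, as the difference from the median library of its table, with libraries ordered by the level of the 35 members (C cocaine, S saline, then library number). The other fibroblast, TGF-beta, endothelial, mural, border macrophage and red blood cell lists darken to the right with the members, and the astrocyte and striatal lists stay near 0.

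Markers of choroid plexus epithelium and of cortical excitatory neurons were highest in these libraries for only part of their lists. Of the choroid plexus epithelium genes that averaged 0.5 RPKM or more, 3 of 8 were highest in cocaine 6 at 1 day and 3 of 7 in saline 4 at 28 days. Of the cortical excitatory neuron genes 2 of 4 and 2 of 5 were. Over all genes the shares were 27.4% in cocaine 6 and 15.9% in saline 4. The next 3 genes were named after their values were seen. Transthyretin (Ttr), the main secreted protein of choroid plexus epithelium, was at 140.4 RPKM in cocaine 6 and 57.98 RPKM in saline 6 at 1 day, and at most 4.96 RPKM in the other 10. Slc17a7, a vesicular glutamate transporter of cortical excitatory neurons, was at 70.5 RPKM in cocaine 6, 61.7 RPKM in cocaine 3 and 27.7 RPKM in saline 6 at 1 day, against a lowest value of 1.18 RPKM in saline 4. At 28 days it was at 74.8 RPKM in saline 4, 45.8 RPKM in saline 5 and 23.6 RPKM in saline 2, against a lowest value of 1.09 RPKM in cocaine 2. Tyrosine hydroxylase (Th), the enzyme that defines dopamine neurons, was at 384.9, 642.1, 389.8, 143.7 and 141.7 RPKM in saline 1 to 5 at 28 days and at 201.0 to 651.6 RPKM in the cocaine libraries. The summed level of the 10 midbrain dopamine neuron markers then ran from 464.1 to 2070 RPKM after saline and from 656.2 to 1926 RPKM after cocaine. The summed level of the 12 choroid plexus epithelium markers in the VTA at 1 day ran from 8.59 to 69.1 RPKM after saline and from 12.3 to 186.4 RPKM after cocaine, and at 28 days from 9.78 to 38.1 and from 10.8 to 20.6 RPKM. That of the 10 cortical excitatory neuron markers ran from 8.28 to 36.9 RPKM after saline and from 15.1 to 82.5 RPKM after cocaine at 1 day, and from 13.5 to 94.8 and from 12.99 to 29.9 RPKM at 28 days. The 12 endothelial markers summed to 151.0 to 217.6 RPKM after saline and 158.7 to 343.9 RPKM after cocaine at 1 day, and to 201.0 to 443.3 and 168.1 to 260.4 RPKM at 28 days. All of these ranges overlapped between the treatments. No marker of the choroid plexus epithelium, ependyma, endothelial, mural, border macrophage or cortical excitatory neuron lists was at 0 in every VTA library of a group.

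Of the 10 genes of the cortical excitatory neuron list, 4 averaged 0.5 RPKM or more in the VTA at 1 day and 5 at 28 days. Its mean there thus depends in part on few genes and on the added 0.1. When the mean of the cortical excitatory neuron list was entered as a covariate, the members' median log2 fold change in the VTA went from 1.49 to -0.05 at 1 day, with 16 of 35 above 0 and 0 at an unadjusted p under 0.05 against 6.97% of all genes. At 28 days it went from -1.06 to 1.07, with 35 of 35 above 0 and 11 at an unadjusted p under 0.05 against 17.6%. With the choroid plexus epithelium list as the covariate it was 0.68 at 1 day, with 17 at an unadjusted p under 0.05 against 14.6%, and -0.19 at 28 days, with 0 against 11.6%. Each list mean was measured in the same libraries and differed between the treatments, so dissection and treatment cannot be told apart by these fits.

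The other lists show how far beyond the members the difference reached. Of 53 other fibroblast and meningeal genes 47 were tested in the VTA at 1 day, with 0 called by limma, 23 at an unadjusted p under 0.05, all higher after cocaine, against 15.4% of all genes in either direction and 11.1% higher, and a median log2 fold change of 0.95. At 28 days 51 were tested by edgeR, with 0 called, 4 at an unadjusted p under 0.05, all lower, against 11.5% of all genes, and a median of -0.68. The TGF-beta and matrix regulators, which control matrix production and turnover, had 12 of 33 at an unadjusted p under 0.05 at 1 day, against the same 15.4%, all higher, with a median of 0.48, and at 28 days a median of -0.46. The genes for collagen processing and crosslinking, which every collagen-making cell needs, had a median of 0.24 at 1 day and -0.17 at 28 days. At 1 day 14 of 21 of these had their highest value in cocaine 6, as did 42 of 47 other fibroblast genes, 27 of 33 TGF-beta and matrix regulators, 8 of 8 border macrophage genes, 1 of 8 astrocyte genes, and 0 of 10 microglia and 0 of 9 myelin and oligodendrocyte genes, against the 27.4% of all genes given above.

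Among the other cell types at 1 day in the VTA, the median log2 fold change was 1.09 for border macrophages, 1.12 for red blood cells, 0.54 for the choroid plexus epithelium, 0.38 for endothelium and 0.11 for mural cells. It was -0.13 for astrocytes and -0.54 for midbrain dopamine neurons. The microglia list had a median of -0.47, with 8 of 10 at an unadjusted p under 0.05 against 15.4% of all genes, all lower. The part these cell types have in the members' difference was not tested beyond the covariate fits above.

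The NAc is the main target of the VTA dopamine neurons. At 1 day the mean log2 level of the 35 genes there ranged from -0.11 to 0.88 after cocaine and from 0.02 to 1.07 after saline. Foxd1 and Asgr1 did not pass the filter on low counts. Of the 33 members tested 30 were lower after cocaine, with a median log2 fold change of -0.17, where 49.5% of all genes were above 0. edgeR called 0 of them against 0.0126% of 15878 genes, and 0 had an unadjusted p under 0.05 against 4.01%. DESeq2 called 0 against 0.103%, with 1 at an unadjusted p under 0.05 against 3.31%.

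The smallest p-values at 1 day in the NAc were those of Foxc1, Col1a1 and Fmod. Foxc1 ranged from 0.372 to 0.773 RPKM after saline (median 0.517) and from 0.255 to 0.546 RPKM after cocaine (median 0.470), a log2 fold change of -0.27 (SE 0.231, edgeR adjusted p = 0.9999). Fibromodulin (Fmod), a proteoglycan of collagen fibrils, ranged from 0.819 to 5.59 RPKM after saline (median 2.29) and from 0.840 to 4.23 RPKM after cocaine (median 1.13), a log2 fold change of -0.50 (SE 0.507, edgeR adjusted p = 0.9999). The groups overlapped for both. Col1a1 was between 0.102 and 0.461 RPKM, Col1a2 between 1.09 and 2.28, Dcn between 2.78 and 6.40, Igf2 between 4.65 and 9.52 and Slc6a13 between 1.05 and 3.86 RPKM over the 12 libraries, with log2 fold changes of -0.27, -0.07, -0.18, -0.15 and -0.31.

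At 28 days in the NAc 33 members were tested, without Asgr1 and Slc47a1, and edgeR called 0 of them and 0% of all genes, as DESeq2 called 0 against 0.0647%. At an unadjusted p under 0.05 edgeR had 7 against 6.76% of 16295 genes, 5 higher after cocaine against 3.34% and 2 lower against 3.42%, and DESeq2 had 9 of 34 tested against 5.31%. The median log2 fold change was 0.08, with 18 members above 0, where 52.0% of all genes were. Col1a2 ranged from 1.71 to 2.44 RPKM after saline (median 2.01) and from 1.86 to 3.47 RPKM after cocaine (median 2.79), a log2 fold change of 0.41 (SE 0.122, edgeR adjusted p = 0.592). Aldh1a2 ranged from 0.511 to 0.863 RPKM after saline (median 0.588) and from 0.698 to 2.26 RPKM after cocaine (median 0.888), a log2 fold change of 0.79 (SE 0.262, edgeR adjusted p = 0.628). Crabp2, the other retinoid gene, went the other way: it ranged from 1.03 to 1.92 RPKM after saline (median 1.66) and from 0.925 to 1.35 RPKM after cocaine (median 1.01), a log2 fold change of -0.55 (SE 0.186, edgeR adjusted p = 0.630).

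For these 3 genes the groups overlapped. Cocaine library 5 held the highest level of 13 of the 25 NAc members with a mean of at least 0.5 RPKM at 28 days, where 8.33% of all genes were highest in it, and without it the median log2 fold change of the members was -0.07. Of the other named members at 28 days, Slc6a13 had a log2 fold change of 0.43 (SE 0.173, edgeR adjusted p = 0.690), Col1a1 0.14, Igf2 0.12, Dcn -0.06 and Foxc1 -0.09. The interaction of treatment and time in the NAc, fitted by edgeR over both NAc tables, called 0 of 34 members against 0.0181% of 16612 genes, and 26 were above 0 against 55.8%. It had 3 members at an unadjusted p under 0.05, against 5.27% of all genes, all positive, against 2.53%: Col1a2 at 0.49 (SE 0.211), Fmod at 1.43 (SE 0.638) and Aldh1a2 at 1.12 (SE 0.536), with adjusted p-values of 0.932, 0.932 and 0.944.

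In the PFC at 1 day 25 members had a mean of at least 0.5 RPKM and were tested, and 24 of these were lower after cocaine, with a median log2 fold change of -0.36, where 45.4% of all genes were above 0. The 10 below the filter included Col1a1, which was between 0.113 and 0.408 RPKM. limma called 0 of the 25 against 0.00693% of 14427 genes, and 3 had an unadjusted p under 0.05, all lower, against 4.15% in either direction and 2.5% lower. edgeR on the recovered reads tested 31 and called 0 against 0.00635%, with 7 at an unadjusted p under 0.05 against 4.33%. The mean log2 level of the 35 genes was 0.10 ± 0.34 (SD, n = 6) after cocaine and 0.46 ± 0.37 (SD, n = 6) after saline.

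Elastin (Eln), the rubber-like protein of vessel walls, had the smallest p in the PFC at 1 day. It ranged from 0.510 to 0.959 RPKM after saline (median 0.768) and from 0.379 to 0.465 RPKM after cocaine (median 0.433). All cocaine libraries lay below all saline libraries, as in 0.0762% of all genes. Its log2 fold change was -0.66 (SE 0.135, limma adjusted p = 0.455). Islr, a leucine-rich repeat protein, ranged from 2.43 to 4.43 RPKM after saline (median 3.40) and from 2.11 to 3.27 RPKM after cocaine (median 2.78), a log2 fold change of -0.33 (SE 0.137, limma adjusted p = 0.918). Fmod ranged from 0.573 to 2.62 RPKM after saline (median 1.57) and from 0.356 to 1.44 RPKM after cocaine (median 0.637), a log2 fold change of -0.97 (SE 0.414, limma adjusted p = 0.918). For Islr and Fmod the groups overlapped. Igf2 had a log2 fold change of -0.57, Dcn of -0.43, Slc6a13 of -0.43, Col1a2 of -0.22 and Foxc1 of -0.19, with limma adjusted p-values of 0.918.

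In the PFC at 28 days 34 members were tested, without Slc47a1, and 27 were lower after cocaine, with a median log2 fold change of -0.20, where 50.1% of all genes were above 0. edgeR called 0 of these and 0% of 16340 genes, with 0 members at an unadjusted p under 0.05 against 5.66% of all genes, and DESeq2 called 0 against 0.00858%, with 0 at an unadjusted p under 0.05 against 4.38%. Fibronectin (Fn1), Bmp6 and Col8a1 had the smallest p. Fn1 ranged from 5.25 to 8.74 RPKM after saline (median 7.59) and from 4.69 to 7.78 RPKM after cocaine (median 6.33), a log2 fold change of -0.23 (SE 0.140, edgeR adjusted p = 0.848). Bmp6, a growth factor of the TGF-beta family, ranged from 0.795 to 3.78 RPKM after saline (median 1.5997) and from 0.761 to 2.09 RPKM after cocaine (median 0.981), a log2 fold change of -0.49 (SE 0.352, edgeR adjusted p = 0.864). Col8a1 had a log2 fold change of -0.23 (SE 0.176, edgeR adjusted p = 0.872). The groups overlapped for all 3.

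In the PFC at 28 days saline 6 held the highest level of 19 of the 27 members with a mean of at least 0.5 RPKM, where 8.93% of all genes were highest in it. Igf2 was at 18.7 RPKM there against 3.80 to 6.63 in the other saline libraries, and Dcn at 11.8 against 2.11 to 4.03. Myelin and oligodendrocyte genes were also highest in it, 9 of 9. Slc6a13 was at 8.55 RPKM against 1.38 to 3.61, Col1a1 at 2.48 against 0.504 to 0.840, Col1a2 at 7.46 against 2.16 to 4.15 and Foxc1 at 1.26 against 0.474 to 0.818. Without saline 6 the median log2 fold change of the members went from -0.20 to 0.10. Saline 4, the library with striatal markers, was the lowest for 12 of the 27, and the share of all genes lowest there is not given. Cocaine against saline gave log2 fold changes of -0.29 for Igf2, -0.30 for Dcn, -0.20 for Slc6a13, -0.09 for Col1a1, -0.22 for Col1a2 and -0.11 for Foxc1, with edgeR adjusted p-values from 0.912 to 0.974. The interaction of treatment and time in the PFC, added after the values were seen, called 0 of 35 members against 0.00604% of 16565 genes, with 1 at an unadjusted p under 0.05 against 4.85%.

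Where the fibroblast genes are most abundant was asked of the saline libraries at 28 days, in 1 edgeR fit of 6 NAc, 5 VTA and 6 PFC libraries. Each region came from its own table, so region and table cannot be told apart. Whether libraries of different regions came from the same mice is not given in the sources used here, and the fit treats all 17 as separate. In the VTA, Mgp had the highest median of the members, 54.7 RPKM, followed by Igf2 at 44.9, Igfbp2 at 30.8, Dcn at 30.3 and Bgn at 20.8 RPKM. Their VTA ranges overlapped, so neighbours in this order were not told apart by their spread. In the NAc and PFC the order was led by Col6a1, with medians of 66.1 and 23.99 RPKM, followed by Mgp with 11.6 and 12.9 RPKM. Slc47a1 was the lowest member in every region, with medians of 0.280 RPKM in the VTA, 0.063 in the PFC and 0.028 in the NAc.

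Of the 35 members 32 were called between VTA and NAc, 31 higher in the VTA and 1 lower, against 62.5% of 17181 genes called, 32.6% higher and 29.8% lower; at an unadjusted p under 0.05 there were 33, against 65.8%. The median log2 fold change was 2.82, against 0.03 over all genes. Slc47a1, at 0 in at least 1 NAc library, had the largest at 6.25, which depends on the prior count. Slc13a4, a sulfate transporter, followed at 4.72 (SE 0.843), then Asgr1 at 4.52, also at 0 in at least 1 NAc library, and Fmod at 4.42. Bmp6 at 1.25, Col5a1 at 1.07 and Col6a2 at -0.79 were not called (edgeR adjusted p = 0.0663, 0.0776 and 0.180).

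Col6a1 was the only member called lower in the VTA than in the NAc, by a log2 fold change of -3.75 (SE 0.522, edgeR adjusted p = 6.35e-06), and was named after its values were seen. It ranged from 50.6 to 88.6 RPKM in the NAc, from 15.04 to 40.3 in the PFC and from 1.20 to 15.2 in the VTA, and the ranges of VTA and NAc did not overlap. Within the VTA it was nevertheless highest in saline 4 with the other members. In the NAc Col6a1 was between 29.8 and 91.7 RPKM at 1 day and between 50.6 and 103.3 RPKM at 28 days.

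**Figure D5:**
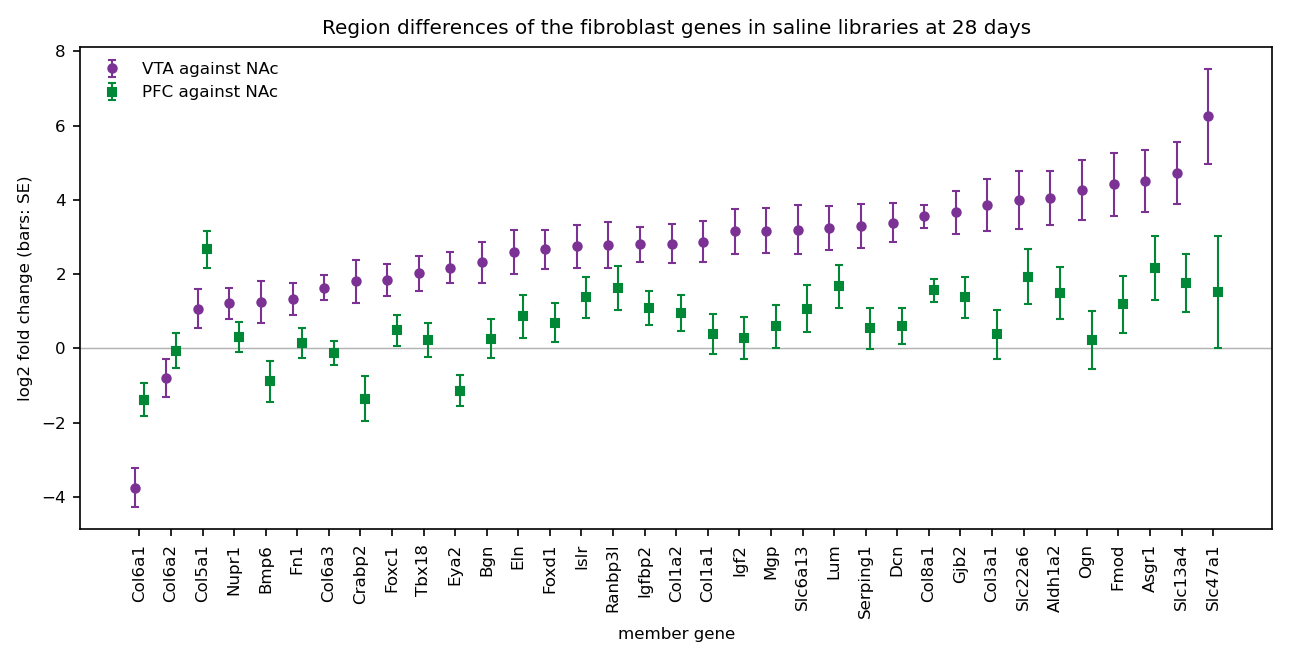
Log2 fold change with its SE of each member between VTA and NAc (circles) and between PFC and NAc (squares) in saline libraries at 28 days, with genes ordered by the VTA value. Only Col6a1 and Col6a2 lie below 0 for the VTA, and Col5a1 is the one member with a larger value in the PFC among those above 0.

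Between PFC and NAc 7 of 35 members were called, 5 higher in the PFC and 2 lower, against 40.7% of all genes, 20.7% higher and 20% lower, with a median log2 fold change of 0.61. The count ran from 3 to 13 when 1 library was left out, and was 11, with 9 higher, without PFC saline 4, the library with striatal markers, against 40.9% of all genes and 19.8% higher. Higher in the PFC were Col5a1 by 2.66, Slc22a6 by 1.93, Lum by 1.67, Ranbp3l by 1.63 and Col8a1 by 1.56, and lower were Col6a1 by -1.38 and Eya2 by -1.13. The other 28 members were not called, and 14 of the 35 had an unadjusted p under 0.05, against 47.7% of all genes. Between VTA and PFC 32 members were called, 30 higher in the VTA and 2 lower, against 57.8% of all genes, and 29.8% higher; the count at an unadjusted p under 0.05 was 33, against 62.3%, with a median log2 fold change of 2.06. The largest were Slc47a1 at 4.73, Ogn at 4.04, Col3a1 at 3.47 and Eya2 at 3.31. Nupr1, Ranbp3l and Col6a2 were not called, with edgeR adjusted p-values of 0.0727, 0.0938 and 0.224, and Col6a1 at -2.37 and Col5a1 at -1.59 were the members called lower.

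The region values rest in part on saline 4 of the VTA. Without it the median log2 fold change of the members between VTA and NAc was 2.05, with 30 called against 59.8% of all genes, and between VTA and PFC 1.28, with 25 called against 54.5%. In the saline libraries at 1 day it was 1.08 between VTA and NAc. Other lists also differed in these fits: border macrophages had a median of 1.72 between VTA and NAc with 8 of 9 called higher, against the 32.6% of all genes given above, myelin and oligodendrocyte genes 1.68 with 9 of 9, and endothelium 0.57 with 9 of 12. The other fibroblast and meningeal genes had a median of 1.49, with 36 of 51 called higher and 5 lower. Their part in the members' difference was not tested.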

How the data were processed

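Each library took its group from its label, and each table column was matched by name. The columns of the 28-day tables name a group and not which labelled sample they are, so those libraries have only a number. The submitters' processing notes name STAR 2.4.1d and mm9. For NAc at both times and for VTA and PFC at 28 days, the values the authors deposited are unnormalized read counts for every gene. Those deposited for the 1-day VTA and PFC are RPKM. Their own fold changes and p-values in the tables were not used, nor were 30 columns of values that belong to no sample here. The strand used in counting is not given in the sources used here, so overlapping genes are uncertain.

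Counts were tested with edgeR 4.0.16 (R 4.3.3; TMM scaling, filterByExpr with a minimum count of 10 and total of 15, glmQLFit and glmQLFTest), and RPKM with limma 3.58.1 after adding 0.1 and taking log2, which understates the change of weakly expressed genes; genes averaging under 0.5 RPKM were left out. p-values were adjusted by Benjamini-Hochberg across every gene tested, and a gene was called below 0.05. RPKM values step by the worth of a single read; within a tolerance of 0.001, reads came out whole for 100% of 23806 VTA and 23353 PFC genes. The gene lengths this gave, for 24779 genes, were used to express counts as RPKM. No libraries held identical values. The mean of a list is that of log2(RPKM + 0.1) over its genes.

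The members and the 15 comparison lists (228 genes) were chosen with earlier results of these data known. Named were Col1a1, Col1a2, Dcn, Igf2, Slc6a13 and Foxc1 throughout, the 3 smallest p-values where fewer than 3 members were called, and between regions the 4 largest changes called and the members not called. Alternatives were DESeq2 1.42.0, its size factors, no filter, a pseudocount of 1, an adjusted p under 0.25, recovered reads, list covariates, the replicate block and leaving out libraries. Scripts were tested on simulated data. Figures were drawn with matplotlib 3.10.9 in Python 3.11.15. Replicate numbers were not used to pair the 1-day samples in the main tests. Over genes, the correlations of deviations between same-numbered libraries ran from -0.49 to 0.60 in the NAc, -0.27 to 0.45 in the VTA and -0.16 to 0.07 in the PFC. A result for a single gene of the marker lists is not reported here.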

Additional observations from a re-analysis of the deposited data

Results flagged for a closer look

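Dixon's rule for a value far from the rest of its group was applied in the 12 groups to 6 named members and to the mean of all 35, 84 times in all, and 15 of these held such a value. Chance gives about 1 in 20 for independent groups, whereas here the same libraries were tested 7 times over with genes that moved together. In the VTA at 1 day, cocaine library 6 had Col1a1 at 6.87 RPKM, Col1a2 at 40.8, Slc6a13 at 81.1 and Foxc1 at 8.03 RPKM, where the other cocaine libraries reached 2.35, 15.5, 20.5 and 2.84 RPKM. Saline library 3 had Col1a1 at 1.73 RPKM, above the 0.499 to 0.952 of the other saline libraries. In the VTA at 28 days, cocaine library 4 had Slc6a13 at 19.2 RPKM, above the 1.41 to 8.09 of its group. In the PFC at 28 days, saline library 6 had Col1a1 at 2.48 RPKM, Dcn at 11.8, Igf2 at 18.7 and Slc6a13 at 8.55 RPKM, where the other saline libraries reached 0.840, 4.03, 6.63 and 3.61 RPKM.

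In the NAc at 1 day, saline library 2 had Col1a2 at 2.28 RPKM, above the 1.09 to 1.54 of its group, and cocaine library 3 had Dcn at 6.40 RPKM, above 2.78 to 4.04. In the NAc at 28 days, saline library 1 had Col1a1 at 0.996 RPKM, above 0.609 to 0.749, and Dcn at 2.53 RPKM, below 3.00 to 3.26. Cocaine library 5 there had a mean log2 level of the 35 members of 0.999, above 0.17 to 0.47. In these groups more than 1 gene marked the same library in the VTA at 1 day, the PFC at 28 days and the NAc at 28 days.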

How the results depend on the processing

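With 5 or 6 libraries a group and the spread given above, 0 members were called in any cocaine comparison under DESeq2, its size factors, no filter, a pseudocount of 1, recovered reads, list covariates, the replicate block or leaving out 1 library, and at an adjusted p under 0.25 the VTA at 1 day had 11. A count was taken as held when it was equal to the count first reported or within a fixed ratio of it. A median was taken as held when it moved by less than the SD between libraries within groups, even where its sign changed. By these rules 131 counts and medians held over settings other than leaving out 1 library, and 329 when 1 library was left out. Direction and side of the threshold held for 474 and 1458 single-gene values. Under those other settings 14 counts and medians moved and 2 reversed, while 36 single-gene values reversed, 9 lost their call and 11 gained 1, all 20 of these between regions. With 1 library left out 34 counts and medians moved, 19 single-gene values reversed, 23 lost their call and 35 gained 1. Members at an unadjusted p under 0.05 moved to 1 in the NAc at 1 day with DESeq2 and 1 with no filter, to 6 with no filter and 7 with recovered reads in the PFC at 1 day, and to 1 in the PFC at 28 days with the striatal list as a covariate. For the fits with no filter and with the striatal list the share of all genes is not given. In the VTA at 1 day they moved to 0 with the cortical covariate, 17 with the choroid plexus covariate and 7 without both libraries that stood apart (chosen after seeing the data). The cortical list holds genes of low level in the VTA, as given above. With the cortical covariate the median log2 fold change became -0.0484 at 1 day, with Col1a1 at -0.213, Col1a2 at -0.049, Igf2 at -0.0427, Slc6a13 at -0.123 and Foxc1 at -0.138. At 28 days it became 1.07, with 11 members at an unadjusted p under 0.05 and Col1a1 at 0.88, Col1a2 at 1.03, Dcn at 0.64, Igf2 at 1.39, Slc6a13 at 1.22, Foxc1 at 0.55 and Col3a1 at 0.93. Igf2 was 0.0074 there without both libraries, and Col1a1 0.117 in the PFC at 28 days with the choroid plexus covariate. The cause of these changes was not tested.

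Between regions, the median log2 fold change was 1.57 in cocaine libraries at 28 days and 1.08 in saline libraries at 1 day for VTA against NAc, and 1.24 and 1.27 for VTA against PFC. Col5a1 reversed to -0.58 at 1 day for VTA against NAc, and for VTA against PFC Ranbp3l reversed to -0.139 and Nupr1 to -0.133 in cocaine libraries and Ranbp3l to -0.40 at 1 day. For PFC against NAc, reversals in cocaine libraries were Col6a2 0.0558, Ogn -0.24, Igf2 -0.126, Bgn -0.0055 and Serping1 -0.184. At 1 day they were Col1a1 -0.163, Col3a1 -0.0558, Col6a2 0.45, Col6a3 0.114, Ogn -1.27, Igf2 -0.295, Slc6a13 -0.0991, Slc13a4 -0.271, Serping1 -0.276, Fmod -0.76, Asgr1 -0.0383, Slc47a1 -0.79 and Fn1 -0.0229.

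Leaving out each library in turn kept 0 called in the cocaine comparisons. For most of these fits the share of all genes is not given, and it differs between fits. In the VTA at 28 days it was 14% at an unadjusted p under 0.05 without cocaine 4, against 11.5% with all libraries. The counts below therefore do not by themselves show a change in the members. In the VTA at 1 day the count at an unadjusted p under 0.05 ran from 12 (without saline 4) to 35 (without cocaine 5), with 15 without cocaine 3 or 6, 16 without cocaine 4 or saline 1 and 17 without saline 5, and the median from 1.15 to 1.80. In the VTA at 28 days the count ran from 0 to 18 (without cocaine 4), with 3 without saline 1 and 1 without saline 2, and the median from -1.54 to -0.227 (without saline 4). In the NAc the count was 0 at 1 day, with a median of -0.249 to -0.0301, and 5 to 10 at 28 days, with a median of -0.0715 (without cocaine 5) to 0.145. In the PFC it was 1 (without cocaine 2 or 3 or saline 1 or 6) to 8 (without cocaine 5) at 1 day, with a median of -0.45 to -0.285, and 0 to 1 at 28 days, with a median of -0.387 to 0.1003 (without saline 6). The NAc interaction median ran from 0.13 to 0.348. Members called numbered 30 to 34 for VTA against NAc, with a median of 2.05 to 3.09, 25 to 34 for VTA against PFC, with a median of 1.28 to 2.52, and 3 (without NAc saline 2 or PFC saline 6) to 13 (without VTA saline 1 or 4) for PFC against NAc, with a median of 0.319 to 0.741. In the PFC at 28 days, Col1a1 ran from -0.299 to 0.455, Col1a2 from -0.344 to 0.0864, Dcn from -0.493 to 0.247, Igf2 from -0.425 to 0.237, Slc6a13 from -0.407 to 0.318 and Foxc1 from -0.219 to 0.0602, each above 0 without saline 6. In the NAc, Dcn at 28 days ran from -0.192 to 6e-04, Igf2 from -0.0354 to 0.196, Col1a2 at 1 day from -0.143 to 0.101 and the Dcn interaction from -0.0253 to 0.348. For PFC against NAc, Bgn ran from -0.215 to 0.375, Col1a1 from -0.157 to 0.518, Col3a1 from -0.417 to 0.559, Col6a2 from -0.243 to 0.0252, Igf2 from -0.25 to 0.412, Ogn from -0.204 to 0.426 and Serping1 from -0.0635 to 0.676.

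Replicate numbers were not used for pairing in the main 1-day tests. In the NAc at 1 day, same-numbered libraries had similar shares of reads on the members, led by Col6a1. For numbers 1 to 6 these were 0.0416%, 0.0494%, 0.0536%, 0.0382%, 0.0557% and 0.0409% after cocaine. After saline they were 0.0419%, 0.0524%, 0.0558%, 0.0395%, 0.0545% and 0.0377%. Correlations over all genes do not show whether a number marks a factor that acts on few genes, and this was not tested. With the replicate block, the count at an unadjusted p under 0.05 was 32 in the VTA, 0 in the NAc and 3 in the PFC, with medians of 1.49, -0.153 and -0.362. The share of all genes in these fits is not given. A library correlated best with its own number for 2 of 6 numbers in the VTA, 2 in the NAc and 0 in the PFC. No paired analysis was possible at 28 days because the columns carry no labelled numbers.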

Other observations

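Red blood cell genes, which report blood left in a punch, had their own pattern outside the VTA. In the NAc at 28 days all 5 of the red blood cell genes tested had an unadjusted p under 0.05 and were lower after cocaine, with a median log2 fold change of -0.82 and 0 called by edgeR, where 6.76% of all genes had such a p. The red blood cell means (log2 RPKM) had a median of 2.79 and a highest value of 4.47 after saline. After cocaine the median was 2.57 and the highest value 2.67. The members there had a median log2 fold change of 0.08. In the PFC at 28 days the red blood cell median was -0.74, with 1 of 5 at an unadjusted p under 0.05 against 5.66% of all genes, and saline 4, the library with striatal markers, held the highest red blood cell mean, 4.27 (log2 RPKM) against at most 2.86 in the other PFC libraries.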
